A study of Mus musculus with 2 samples.

Results

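The genes of the small subunit of the mitochondrial ribosome were taken by name: every protein-coding mouse gene called Mrps with a number and, in some cases, a letter, plus Dap3 and Ptcd3, whose proteins are also part of that subunit. This gave 31 genes of 21268 protein-coding genes with a mapped start site on chromosomes 1 to 19 and X. The naming rule uses no measured value, although the group was picked with earlier results of these data known. By background knowledge 3 of the 31 carry the Mrps name while their proteins sit elsewhere: the products of Mrps18a and Mrps30 are in the large subunit, and that of Mrps36 belongs to the 2-oxoglutarate dehydrogenase complex. They were kept, since the name was the rule, and are given apart where it matters.

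The study mapped the binding of NRF1, nuclear respiratory factor 1, by chromatin immunoprecipitation followed by sequencing, in the cells of CH12.LX, an established mouse B-cell lymphoma line. The labels give its strain as B10.H-2aH-4bp/Wts and its sex as female, and name no treatment or genetic change. The only group holds 2 biological replicates of this 1 line, both made with an antibody to NRF1, so the design has no comparison between groups, and no control library was analysed here. The files hold positions of binding and no expression, so the cell type could not be checked against marker genes. The number of reads is unknown, so no interval that needs a depth is given.

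Mitochondria translate a small set of proteins, all of the respiratory chain and ATP synthase, on ribosomes of their own. The rRNA of the small subunit is encoded in mitochondrial DNA, whereas every protein of the subunit comes from a nuclear gene, is made in the cytosol and is imported. NRF1 binds as a dimer to a GC-rich palindrome near transcription start sites and is known as a regulator of nuclear genes for respiration and mitochondrial gene expression. Some small-subunit proteins have counterparts in bacterial ribosomes, and others were added in the mitochondrial lineage.

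Nearly all the small-subunit genes had an NRF1 peak at the start site. A gene was called occupied when the summit of a peak lay within 1000 bp of its start. The peaks were those of the optimal set, which the authors selected on mm10 by irreproducible discovery rate from both replicates (17547 peaks analysed). By this rule 29 of the 31 genes were occupied, 93.5%, where 39.3% of all protein-coding genes were. The 2 genes without a peak were Mrps25 and Mrps31. All 16 genes with a bacterial counterpart were occupied, 10 of the 12 mitochondria-specific ones, and all 3 whose products sit elsewhere. The 49 genes of the large subunit (Mrpl) had 44 occupied members, 89.8%, and the 30 cytosolic small-subunit genes (Rps) had 27, 90%. Whether these shares differ was not tested.

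The call did not rest on one selection of peaks. The stricter conservative set held the same number, 29 genes, against 37.9% of all genes. In the upper part of the optimal set, its 8773 peaks of higher signal, all at 38.1 or more, 26 genes (83.9%) kept a promoter peak, against 28.7% of all genes, and the additional losses were Mrps11, Mrps17 and Dap3. Each replicate was also read alone, taking its 17547 strongest peaks. Replicate 1 gave 29 genes where 40.5% of all genes had a peak, and replicate 2 gave 30 genes where 39.1% had one. Called in each replicate separately were 29 genes, with a background of 36.1%. A separate peak set that the authors made on mm9 from the same libraries held a promoter peak for 27 of the 31 genes, 87.1%. Of the 20322 genes matched to that annotation, 35.4% had one. For Mrps5 and Dap3 the mm9 promoter peak was a different one from the mm10 promoter peak, at another start.

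**Figure D1:**
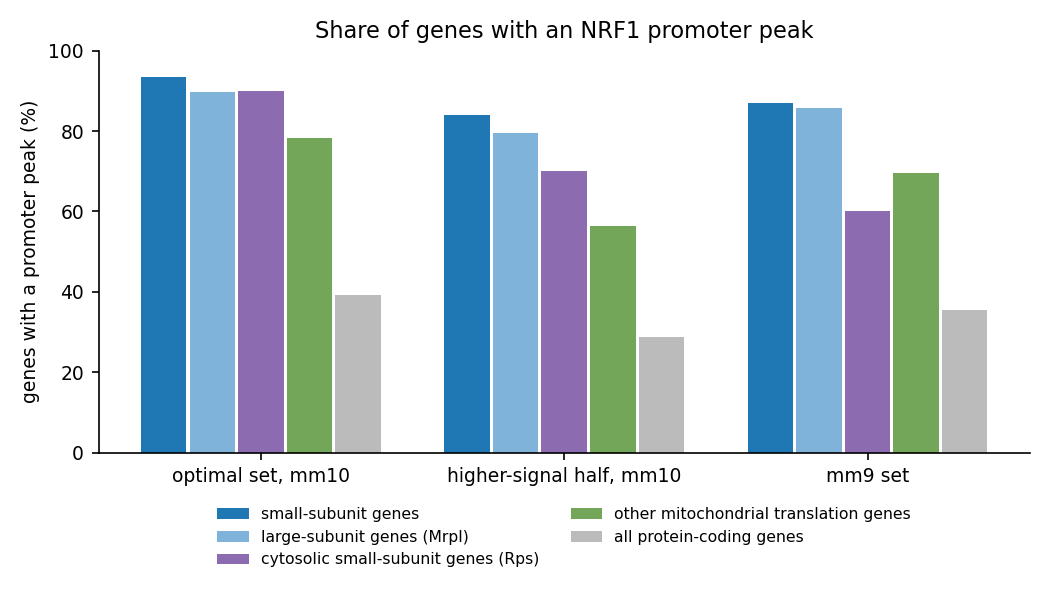
Share of genes with an NRF1 promoter peak, in percent, for the small-subunit genes, large-subunit genes, cytosolic small-subunit genes, other mitochondrial translation genes and all protein-coding genes, in 3 peak sets. Bars for the small-subunit genes stand at 93.5%, 83.9% and 87.1%, and those for all genes at 39.3%, 28.7% and 35.4%.

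The sequences under the peaks are shown for the genes with the closest match to the NRF1 palindrome, because these sites could be read directly at the summit. The consensus was GCGCACGCGC or GCGCATGCGC, sought in both directions up to 50 bp from the mm9 summit, since mm9 was the build with a genome at hand. In each line below, read 5′ to 3′ on the plus strand of mm9, the capitals mark the matched 10 bases, in order of the gene's signal in the mm10 optimal set.
Mrps26: tccgggccggGCGCAGGCGCaggcgctggc
Mrps21: tcggtgctgaGCGCAGGCGCtggactttcc
Mrps18b: tgctcccagtGCGCATGCGTcgggccgttt
Mrps9: tgggaggtctGCGCCTGCGCagtctccagg
Mrps33: tcctgacctcGCGCACGCGCgtccccggaa
Mrps6: ccgcaccgcgGCGCACGCGCactcgctcgc
Mrps5: tcccaacaccACGCATGCGCacgctctact
Mrps33 and Mrps6 held the exact consensus. The others differed at 1 base, counted from 1 at the 5′ end of the consensus, with the consensus base first: C6G in Mrps26 and Mrps21, C10T in Mrps18b, A5C in Mrps9 and G1A in Mrps5. Mrps26 held a second C6G match and Mrps6 a second match with G7T, each overlapping the first. In Mrps5 a second match with G9T overlaps the one shown. All changes are named as read on the plus strand. Read on the other strand, the Mrps9 site has the same bases as the Mrps26 and Mrps21 sites. The Mrps18b site read that way has those of the Mrps5 site.

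These windows were Mrps26 at chr2:130389481-130389510, Mrps21 at chr3:95675509-95675538, Mrps18b at chr17:36053591-36053620 and Mrps9 at chr1:42908063-42908092. Mrps33 was at chr6:39760867-39760896, Mrps6 at chr16:92058199-92058228 and Mrps5 at chr2:127416050-127416079. By the mm9 annotation, the sites of Mrps26, Mrps9 and Mrps33 lay in an untranslated exon of the gene itself. That of Mrps21 lay in an untranslated exon of C920021L13Rik, a gene model that overlaps it, that of Mrps18b in a noncoding exon of its neighbour Ppp1r10, and that of Mrps6 upstream, outside annotated genes. The Mrps5 site lay in an intron, at -113 bp from an internal start of the mm9 annotation, and belongs to a different peak from the mm10 promoter peak of that gene.

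Signals at the strongest small-subunit promoters, from Ptcd3 to Mrps33, ran from 558.4 down to 428.4. Peak signal is the authors' measure of enrichment, and its scaling is not stated. It was over 300 at 10 of the 29 occupied genes (34.5%) and between 100 and 300 at 4 (13.8%). At the other 15 (51.7%) it was under 100. Among all occupied genes the shares were 32%, 15.1% and 52.9%, so this spread was close to that of the genome. The median was 89.5, with quartiles at 53 and 454.7 and a range from 25.8 to 558.4, where all occupied genes had a median of 85.6 and quartiles at 35.9 and 417.7. Large-subunit genes had a median of 103.7 and Rps genes one of 145.6. Of the small-subunit genes, 5 (17.2%) were among the strongest 10% of optimal peaks, against 20.3% of all occupied genes and 15 of 44 large-subunit genes (34.1%).

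**Figure D2:**
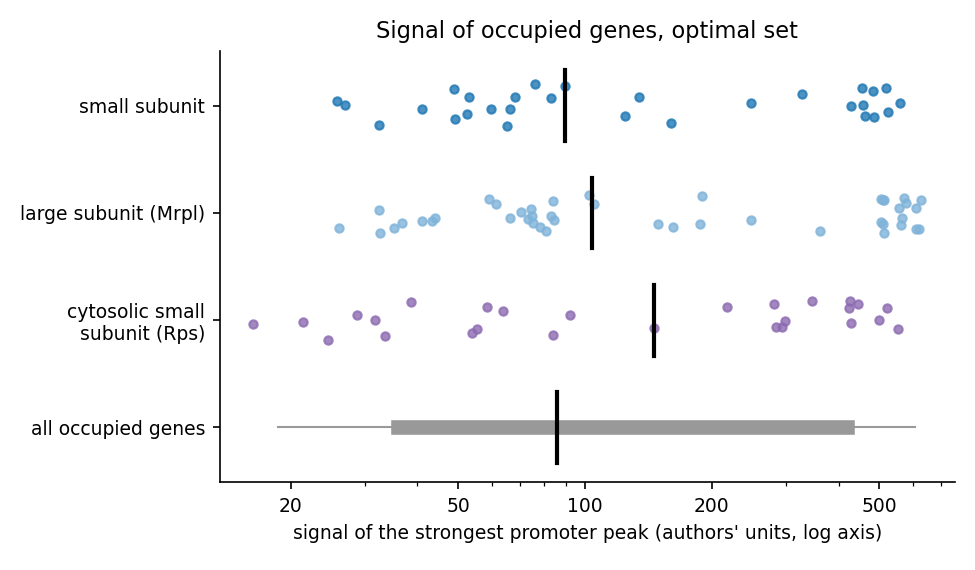
Signal of the strongest promoter peak of each occupied gene in the mm10 optimal set, on a log axis, for small-subunit, large-subunit and Rps genes (points; black bars are medians, 89.5, 103.7 and 145.6). For all occupied genes the thick bar spans the quartiles, the thin line the 5th to 95th percentile, and the black bar is the median of 85.6.

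Ptcd3, which encodes a pentatricopeptide repeat protein at the place where mRNA enters the subunit, had the strongest mm10 promoter peak of the 31 genes, with an optimal-set signal of 558.4 (chromosome 6, 71908902 to 71909216, mm10). Its relaxed-list signal was 297.3 in replicate 1 and 261.5 in replicate 2, or 279.4 ± 25.4 (SD, n = 2). The summit was at -298 bp from the start of Ptcd3 (negative is upstream) and 7 bp inside Polr1a, which encodes the largest subunit of RNA polymerase I and runs the other way from a start 291 bp off. The peak therefore lies in the promoters of both genes and cannot be assigned to either.

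Mrps24 followed at 522.6 (chromosome 11, 5707540 to 5707858), with 260.5 and 264.1 in replicates 1 and 2. Its product is a counterpart of a bacterial protein of the head of the subunit. Mrps26, a mitochondria-specific gene, had 516.9 (chromosome 2, 130563612 to 130563924) and replicate signals of 257.7 and 261.9. Both summits were 1 bp from the start site, and for both genes the replicates differed by under 5 units.

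Mrps18a, a large-subunit gene despite its name, had a signal of 485.0 with 240.6 and 244.7 in the replicates (chromosome 17, 46110817 to 46111109). Mrps21 stood at 483.4, with 264.1 in replicate 1 and 221.9 in replicate 2 (chromosome 3, 95871450 to 95871730). It was the only one of the 8 strongest, besides Ptcd3, that was higher in replicate 1. Mrps12, whose bacterial counterpart guards the accuracy of decoding, had 461.4 with 225.7 and 236.1 (chromosome 7, 28742011 to 28742428). Its summit was at -409 bp and 262 bp inside Sars2, the gene of the mitochondrial seryl-tRNA synthetase. Mrps18b had 457.8 with 221.2 and 241.1 (chromosome 17, 35916240 to 35916842), and Mrps9, again with a bacterial counterpart, 454.7 with 219.5 and 236.9 (chromosome 1, 42851071 to 42851375). Mrps33 at 428.4, with 217.1 and 210.3, closed the group. The replicate values of neighbours in this order overlapped, except between Mrps26 and Mrps18a and between Mrps9 and Mrps33. Mrps14 at 328.2 and Mrps28 at 248.1 lay below it in both replicates.

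The middle of the range was held by Mrps6 (160.2), Mrps7 (134.0), Mrps15 (124.6) and Mrps10 (89.5), all with bacterial counterparts. Next came Mrps16 at 82.9, the only occupied gene whose replicates differed by more than 2-fold. It had 57.9 in replicate 1 and 23.3 in replicate 2, a ratio of 2.49. Among all occupied genes 10.3% differed by that much. Mrps27, Mrps22, Mrps35, Mrps36 and Mrps34 followed with signals of 76.2, 68.1, 66.5, 65.3 and 59.8. Mrps30, Mrps23, Mrps2 and Mrps18c had 53, 52.6, 49.2 and 48.9. Apart from Mrps18c, with 17.9 in replicate 1 and 35.1 in replicate 2, every one of these 9 genes was between 20.9 and 43.3 in both replicates.

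The weakest 4 by promoter peak were of both classes, and Mrps5 and Dap3 had a stronger peak elsewhere in the gene (below). Mrps5 had an optimal-set signal of 41.1, with 15.7 in replicate 1 and 24.5 in replicate 2. Mrps11 had 32.4, with 16.2 and 20.9. Both encode counterparts of bacterial proteins, and both are transcribed away from a close neighbour. Dap3, which encodes a GTP-binding protein of the subunit also known from work on cell death, had 27 with 14.6 and 17.5 in the replicates. Mrps17 had the lowest value, 25.8, with 14.9 and 11.9. Neighbours in this order overlapped in their replicate values, and all 4 lay below the 40.6 and 48.6 of Mrps10, the gene at the median.

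Both genes without an optimal peak had only weak entries in the authors' relaxed lists, which hold 300000 peaks each and include background. Mrps25 had 6.04 in replicate 1, at rank 37998, and 13.6 in replicate 2, at rank 11563. Because of the latter rank it counted as occupied in replicate 2 alone. Mrps31 had 7.56 and 7.01, at ranks 25213 and 30667, far beyond the 17547 peaks of the optimal set in either replicate. The replicate 2 value of Mrps25 overlapped those of Mrps17, so the line between the last occupied gene and the first unoccupied one is not sharp. The nearest optimal summit was 30932 bp from Mrps25 and 13066 bp from Mrps31.

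**Figure D3:**
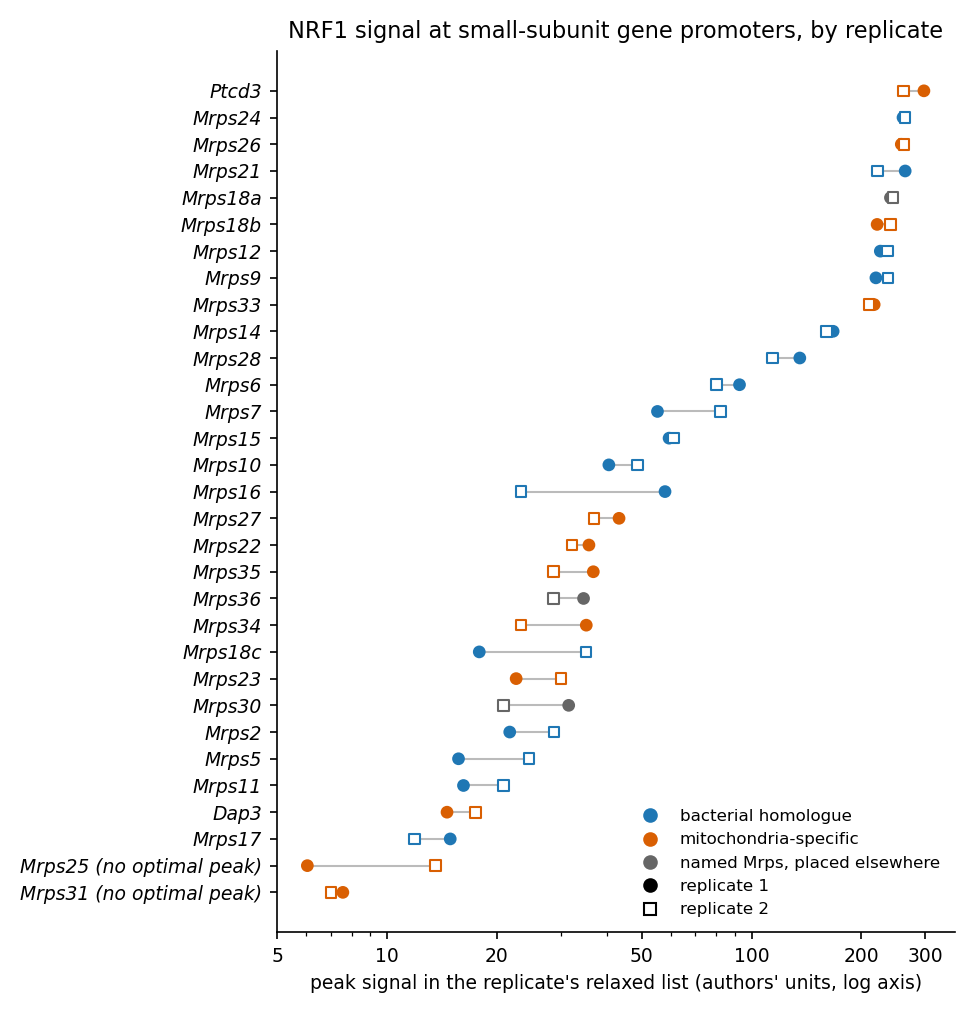
NRF1 peak signal of each of the 31 genes in the relaxed list of replicate 1 (circles) and replicate 2 (squares), on a log axis, in order of their mean and coloured by class. Mrps25 and Mrps31 are lowest in the order, Mrps16 has the widest gap among the occupied genes (57.9 and 23.3), and the 9 strongest all exceed 200 in both replicates.

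Over the 29 occupied genes, log2 signal in replicate 1 and in replicate 2 gave a rank correlation (Spearman) of 0.911 and a linear one (Pearson) of 0.959, as a description across genes that share the same 2 libraries. The optimal set was selected for recurrence between these replicates, so their likeness is in part fixed by that selection. Median signal was 55.2 in replicate 1 and 48.6 in replicate 2, a mean of 51.9 ± 4.71 (SD, n = 2), and the median log2 ratio of replicate 1 to replicate 2 was -0.02, against 0.09 over all occupied genes.

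The 2 classes of protein had different medians and overlapping ranges. Genes with a bacterial counterpart had a median of 129.3 and a range of 25.8 to 522.6. The 10 occupied mitochondria-specific genes had a median of 72.2 and a range of 27 to 558.4. Each class had members over 300, 5 and 4, and members under 100, 7 and 6. Leaving out the 3 genes whose products sit elsewhere, 26 of 28 genes were occupied, with a median signal of 107.0.

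Summits sat close to the starts. Of the 29 strongest promoter peaks, 19 (65.5%) were within 100 bp of the start, against 55.4% of all occupied genes, and the median distance was 48 bp against 83 bp. The summit was upstream of the start at 19 genes (65.5%), against 60.8% overall. The farthest were Mrps6 at -426 bp, Mrps12 at -409 bp and Mrps34 at 360 bp inside. Only Mrps6 and Mrps18c had more than 1 promoter peak, 6.9% of the occupied genes, against 20.1% overall. Mrps6 had 3, at -426, -219 and -8 bp with signals of 160.2, 150.8 and 100.9. A single relaxed peak in replicate 1 (92.7) covered all 3, so they are not 3 independent measurements. The weaker peak of Mrps18c, at -542 bp, had a signal of 18.7.

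**Figure D4:**
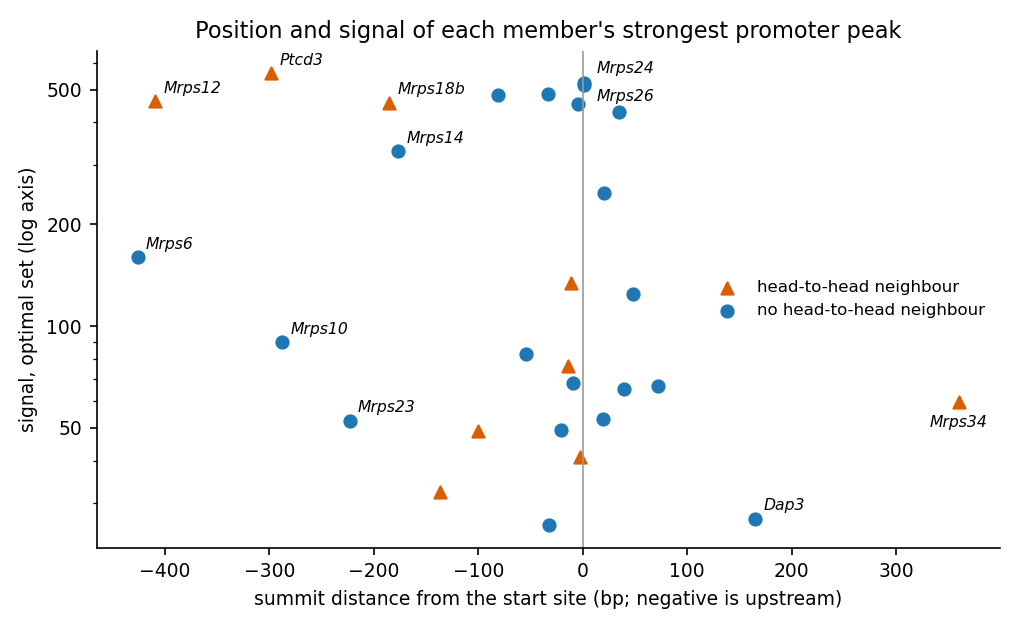
Distance of the summit from the start site, in bp with negative values upstream, against the signal of the strongest promoter peak in the optimal set (log axis), for the 29 occupied genes. Triangles mark genes that share their promoter with a head-to-head neighbour, and 19 of the 29 summits lie within 100 bp of 0.

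Shared promoters were common. A head-to-head neighbour, a protein-coding gene on the other strand with its start within 1000 bp and transcribed away, was found for 9 of the 31 genes (29%), against 8.52% of all genes, 38.8% of large-subunit genes and 13.3% of Rps genes. All 9 were occupied, as were 20 of the 22 genes without such a neighbour. In all 9 the gene's strongest promoter peak was also within 1000 bp of a start of the neighbour. Such a peak cannot be given to one of the pair. The pairs were Ptcd3 with Polr1a, Mrps12 with Sars2, Mrps18b with Ppp1r10, Mrps7 with Gga3, Mrps27 with Ptcd2, Mrps34 with Eme2, Mrps18c with Helq, Mrps5 with Zfp661 and Mrps11 with Mrpl46. The last pair joins the small and the large subunit over a gap of 42 bp, and its peak was weak (32.4). Ppp1r10 encodes a regulator of protein phosphatase 1, Gga3 a clathrin adaptor of the Golgi, Ptcd2 another pentatricopeptide repeat protein, and Helq and Eme2 proteins of DNA repair. The signals of the 9 ran from 32.4 to 558.4 with a median of 76.2. Those of the 20 occupied genes without such a neighbour ran from 25.8 to 522.6 with a median of 107.0.

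Further peaks lay inside the transcribed span of a few genes. Mrps5, weak at its start, had one of 591.5 at 2917 bp downstream, with 304.9 and 289.1 in the replicates, stronger than any promoter peak of the 31 genes. The mm9 annotation places a start of Mrps5 there, and the consensus with G1A printed above is from that site. The head-to-head neighbour Zfp661 also had its own stronger peak (574.7). Dap3 had a peak of 293.4 at 1222 bp from its start (161.1 and 129.5), within 1000 bp of a start of Ash1l, a histone methyltransferase gene. Mrps9 had one of 179.2 at 32393 bp and Mrps27 one of 103.7 at 8487 bp downstream. For Mrps5 and Dap3, the promoter peak was thus far weaker than another peak in the gene, in both replicates. The mm10 start used for Dap3 was the gene's outer end. On mm9 the Dap3 promoter peak, with an mm9 signal of 584.1, lay at -37 bp from an annotated start of Dap3.

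Across the 27 genes with a promoter peak in both the mm9 and the mm10 set, signals had a Spearman rho of 0.723, a description across genes from the same libraries. For Mrps5 and Dap3 the mm9 promoter peak is a different one from the mm10 promoter peak, at another start. Without these 2, left out after their values were seen, rho was 0.965 over 25 genes. The 4 without an mm9 promoter peak were Mrps17, Mrps25, Mrps31 and Mrps12. The first 3 were the weakest or unoccupied on mm10, but Mrps12 was sixth strongest there. On mm9 the nearest summit to Mrps12 was 13278 bp away, and Sars2 had no mm9 promoter peak either. The cause was not tested, and the Mrps12 peak rests on the mm10 files alone.

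Within 50 bp of the mm9 summit, 2 of 27 genes (7.41%) held the exact NRF1 consensus, against 11.8% of 7184 genes with an mm9 promoter peak and 16.7% of large-subunit genes. With 1 mismatch allowed there were 7 (25.9%), the 7 printed above, against 38.9% of all and 42.9% of large-subunit genes. With 2 mismatches the share was 66.7% both here and over all genes, and the shorter word TGCGCA was in 29.6% here and in 27.8% overall. Genes with a match within 1 mismatch had mm9 signals from 366.3 to 3327.0 with a median of 1398.2 (n = 7). Those without ran from 57 to 4115.6 with a median of 116.9 (n = 20). The same gap was seen across all genes with an mm9 promoter peak, with medians of 1788.5 and 83.1.

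**Figure D5:**
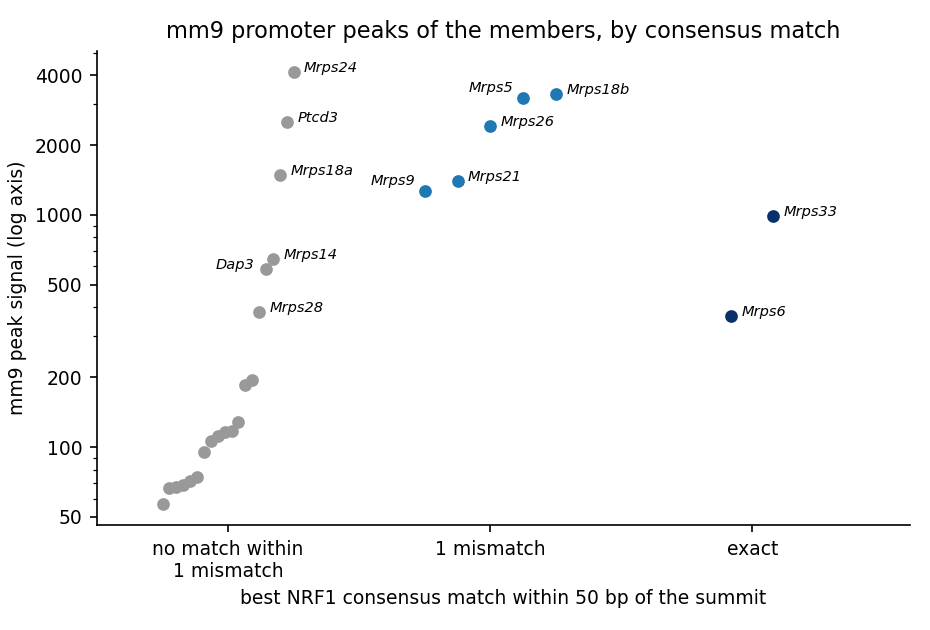
Signal of the mm9 promoter peak (log axis) of the 27 genes that have one, by the best match to the NRF1 consensus within 50 bp of the summit. The 7 genes with a match of up to 1 mismatch start at 366.3. Mrps24, Ptcd3, Mrps18a, Mrps14, Dap3 and Mrps28 also lie above that value, with no such match. The points of Mrps5 and Dap3 are peaks near starts of the mm9 annotation that differ from their mm10 promoter peaks.

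Strong peaks also occurred without a near match. Of the genes over 300 on mm10, Ptcd3, Mrps24, Mrps18a and Mrps14 had no site within 1 mismatch near the mm9 summit. The shorter word TGCGCA was near the summit in Mrps24 and Mrps18a, and not in Ptcd3 and Mrps14. It was in 27.8% of all genes with an mm9 promoter peak. The closest match with 2 mismatches to each of these summits is in capitals below, chosen after the values were seen to show how far the strong peaks depart from the consensus. Lines read 5′ to 3′ on the plus strand of mm9.
Ptcd3: cggttctcgcACGCAAGCGCagtggaaaaa
Mrps24: acgcgtcagtGCGCAGCCGCaggaaggcgg
Mrps18a: cacagcggctGCGCACACCCctgctccgga
Mrps14: aggagagatcGCGCAGGCTCactattctcc
The changes from the consensus were G1A and C6A in Ptcd3, C6G and G7C in Mrps24, G7A and G9C in Mrps18a, and C6G and G9T in Mrps14. The windows are chr6:71859032-71859061, in an untranslated exon of Polr1a, chr11:5607687-5607716, in an intron of Mrps24, and chr17:46247902-46247931 and chr1:162125165-162125194, both outside annotated genes. These sites were 2, 12, 6 and 10 bp from the summits. As 66.7% of all genes with an mm9 promoter peak had such a match, each is a description of the bases and not evidence of a bound site.

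The RefSeq promoters of GRCm38.p6, 250 bases before and 50 after a start, list 27 of the 31 genes and were searched on both strands. None of the 27 held the exact consensus, against 3.58% of the 17274 genes listed and 14% of large-subunit genes. The exact sites printed above for Mrps33 and Mrps6 lay outside these windows. By the mm9 annotation they were 3 and -302 bp from a start, so the result depends on the start and window used. With 1 mismatch there were 4, Mrps26, Mrps21, Mrps18b and Mrps9 (14.8%), against 14.6% of all promoters and 37.2% of large-subunit ones. These 4 had optimal-set signals from 454.7 to 516.9, and the 21 occupied genes without one ranged from 25.8 to 558.4 with a median of 82.9. Of the 23 promoters without a match within 1 mismatch, 21 were occupied. Over all 17274 genes listed, 6951 were occupied, among them 2021 of the 2522 with such a match.

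The core of the YY1 site, AAGATGGC, was in 7 of the 27 promoters (25.9%), against 3.59% of all promoters, 14% of large-subunit and 9.09% of Rps promoters. YY1 is a zinc-finger protein that often sits just downstream of start sites. The 7 genes were Ptcd3, Mrps24, Mrps18a, Mrps12, Mrps7, Mrps27 and Mrps11, with signals from 32.4 to 558.4 and 4 over 300. None of them was among the 4 with an NRF1 match within 1 mismatch. The core and its 10 flanking bases on each side are printed for the 6 whose window is whole in the table, on the gene's strand, with the core in capitals.
Ptcd3: gaagagtccaAAGATGGCggcggcggcg
Mrps18a: ggtgcgttccAAGATGGCggccctcagg
Mrps12: catggacgcaGCCATCTTggagtggaaa
Mrps7: gacagcggccAAGATGGCtgcccccgcg
Mrps27: ggtgcgctccAAGATGGCggctcccatg
Mrps11: tacgggcgccGCCATCTTtctgtcttcc
In Ptcd3, Mrps18a, Mrps7 and Mrps27 the core began 11 to 19 bp inside the gene, on its own strand. In Mrps12 and Mrps11 it began at -199 and -107 bp, on the other strand. The starts of the neighbours Sars2 and Mrpl46 were 147 and 42 bp upstream, so both cores lay inside the neighbour, on its strand. The core lay 320 bp from the mm10 summit in Ptcd3 and 213 bp in Mrps12. In Mrps18a, Mrps7, Mrps27 and Mrps11 it lay 31 to 47 bp away. These windows are chr6:71908726-71908753 and chr7:28742003-28742030 on the minus strand, and chr17:46111005-46111032, chr11:115604148-115604175, chr13:99344790-99344817 and chr7:78783014-78783041 on the plus strand.

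The ETS core CCGGAAGT, bound by factors such as GABP, was in 4 of the 27 promoters, those of Mrps26, Mrps27, Mrps22 and Mrps18c (14.8%, against 5.76% of all promoters). The SP core GGGCGG was in 18 (66.7%, against 49.8%). The promoters were CpG-rich, with GC over 50% and an observed to expected CpG ratio over 0.6, in 22 of 27 cases (81.5%), against 48.9% of all promoters. The CpG ratio had a median of 0.802 against 0.617. Among the 25 occupied genes in the table, signal and CpG ratio had a Spearman rho of 0.0585.

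The other genes of mitochondrial translation had 18 of 23 occupied, 78.3%, against 39.3% of all genes, with a median signal of 60. When a promoter peak was required among the 17547 strongest peaks of each replicate, the count was 15 of 23 (65.2%), against 36.1% of all genes. The difference from the 31 genes was not tested. The small-subunit proteins outside the naming rule were both occupied, with Chchd1 at 172.8 and Aurkaip1 at 38.1. Of the 8 genes for assembly of the subunit and modification of its rRNA, 5 were occupied, led by Noa1, a GTPase, at 379.7. Noa1 had no mm9 promoter peak, and the nearest mm9 summit was 38793 bp away. The other 3, Mettl15, Mettl17 and Ybey, had no optimal promoter peak. Both initiation factors were occupied (Mtif3 at 60.2), as were all 4 release and recycling factors and all 3 genes of mRNA handling (Lrpprc at 177.8). Among the release and recycling factors Mrrf was strongest at 267.7. The weakest were Mtrf1 at 12.2, with no matching peak in replicate 1, and Mtrf1l at 12.9, with 3.61 in replicate 1 and 11.3 in replicate 2, and neither had an mm9 promoter peak. Among the 4 elongation factors, Tsfm (53.3) and Guf1 were occupied, whereas Tufm and Gfm1, which carry tRNA to the ribosome and move it along, were not. Tufm, Gfm1 and Mettl17 did have mm9 promoter peaks, with mm9 signals of 62.1, 36.1 and 46.6.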

How the data were processed

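Chromatin immunoprecipitation with an antibody to NRF1 was sequenced in 2 biological replicates. Per the deposited notes, the authors called relaxed mm10 peak lists per replicate and pooled, with a control, and selected conservative and optimal sets by irreproducible discovery rate. The mm9 set was made from both replicates. Not given in the sources used here were the aligner, the caller, its thresholds and the depth. The deposited signal of each peak is the authors' own value and was compared within a list only. The deposited rank score was read only as a check.

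Start sites came from the RefSeq promoter table (GRCm38.p6) for 17274 genes. For 3994 others the gene's outer end was used, with strand from GENCODE vM1. Genes without either (363 of 21631) were left out. A replicate's value is its strongest relaxed peak overlapping the optimal promoter peak, or, for unoccupied genes, the strongest within 1000 bp. Peaks on chromosomes 1 to 19 and X were used. Motifs at mm9 summits were read from NCBIM37, and no coordinate was converted.

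No test was run: members, lists and motifs were chosen with earlier results of these data known. Replicate values were given for the 8 strongest, the 4 weakest and the unoccupied genes, Dap3 and Ptcd3, and for further genes chosen after their values were seen. Sequences were shown for matches within 1 mismatch of the NRF1 consensus and, chosen after their values were seen, for other strong or YY1-core genes. Assignment and motif search were tested on simulated data. Python 3.11.15, numpy 2.4.6, pandas 2.3.3, scipy 1.17.1 and matplotlib 3.10.9 were used.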

Additional observations from a re-analysis of the deposited data

How the results depend on the processing

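Depth is unknown, so weak and absent peaks cannot be told apart by it, and the labels do not say how far the replicates were separate cultures. The 29 occupied genes became 26 to 30 under other peak sets, 500 or 2000 bp promoters, a single replicate, or without the 3 genes whose products sit elsewhere. With only the gene's outer end as the start, an alternative added after seeing the data, 27 remained occupied, because Mrps2 and Mrps23 have outer ends 2115 and 10282 bp away. Leaving out a replicate gave 29 to 30 small-subunit genes, 46 large-subunit genes, 26 to 28 Rps genes and 18 other translation genes. The mm9 set with 1 start per gene held 16 of the Rps genes, against 27 occupied on mm10. The median signal of 89.5 sits beside a gap in the values and moved to 124.6 with 2000 bp promoters and to 124.6 with outer ends. Genes with the consensus at the mm9 summit numbered 2, and 7 with 1 mismatch, 1 within 25 bp, and, added after seeing the data, 18 with 2 mismatches and 8 for the word TGCGCA. Consensus matches in the promoter table went from 0 to 4 with 1 mismatch. No paired analysis was possible because the design has 1 group and no test.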
